A study of Mus musculus with 6 samples.

Results

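The protein part of the cytosolic ribosome was followed through 6 mouse embryonic fibroblast libraries. A gene was included if its symbol was that of a large-subunit (Rpl, Rplp) or small-subunit (Rps) protein and it reached at least 1 CPM (counts scaled to library size) in at least 1 library. Of 25793 listed genes, 80 had such a symbol and 69 passed that limit, 42 of the large and 27 of the small subunit. The member just inside the limit was Rpl9, with a highest value of 1.46 CPM, and the gene just outside was Rps29, at 0.985 CPM before scaling. A ribosome is built from ribosomal RNA and about equal numbers of copies of each of its proteins, and the genes for those proteins are among the most actively transcribed in growing fibroblasts. Their mRNAs begin with a run of pyrimidines through which the kinase mTOR sets their translation, and the factor MYC promotes their transcription. Their mRNAs have also been copied back into the genome many times, mostly as processed pseudogenes, so a read can match several places.

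The libraries came from primary fibroblasts of E13.5 embryos grown with 10% fetal bovine serum, with 1 library per genotype. The labels name Sptbn1+/-, Sptbn1-/-, Smad3+/-, Smad3-/-, a double heterozygote carrying both Sptbn1+/- and Smad3+/-, and wild type (WT). Sptbn1 encodes beta-II spectrin, a protein of the membrane skeleton, and Smad3 a signal-dependent transcription factor of the TGF-beta pathway. How many embryos gave each culture, and their strain, is not stated in the labels. With no replicate of any genotype, differences are between libraries, and no p-value was computed.

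The make-up of the libraries touches every result below. Smad3 counts ran against the labels, at 79.5 CPM in the library labelled Smad3+/-, 106 CPM in the one labelled Smad3-/-, 203 CPM in the one labelled double heterozygote and 53.3 CPM in WT. Sptbn1, listed as Spnb2, was at 1071 CPM in Sptbn1+/-, 771 CPM in Sptbn1-/-, 1556 CPM in the library labelled Smad3+/-, 1022 CPM in Smad3-/-, 695 CPM in the double heterozygote and 1419 CPM in WT, so the library labelled Sptbn1-/- was not the lowest. All genotype names below, those of Sptbn1 included, are therefore labels of libraries. Among reads aligned to a single site, 80.1 and 81.2% fell on genes in the libraries labelled Smad3-/- and double heterozygote, against 40.9 to 43.3% in the other 4, which include WT. The ribosomal RNA Rn18s was at 349 and 1529 CPM in that pair and at 64661 to 87249 CPM in the other 4. Reads placed at several sites, which are counted on no gene, were 38.9 and 32.5% of records in that pair and 42.9 to 47.1% in the other 4. Counts on genes ranged from 6856680 to 31125055 per library. All 14 fibroblast markers were found in every library. In the library labelled Smad3-/-, 2 of them were higher and 7 lower than in WT by the rule given below, and in the double heterozygote 7 were higher and 1 lower; they summed to 21113, 54679 and 30861 CPM in the library labelled Smad3-/-, the double heterozygote and WT, and Dcn, a proteoglycan of fibroblast matrix, was at 55.2, 1885 and 1301 CPM. Of 6 skeletal muscle markers at 1 CPM or more, 4 were higher and 0 lower in the library labelled Smad3-/-. All 8 listed summed to 141 CPM there, 40.6 CPM in the double heterozygote and 68.3 CPM in WT, where Myog was at 0. In the library labelled Smad3+/- these 8 also summed to 141 CPM, with 1 of the 6 higher and 0 lower. Of 7 epithelial markers at 1 CPM or more, the keratins Krt8, Krt18 and Krt19 were higher in the library labelled Smad3-/- and 0 lower. The other 4 lay below WT there without being called, and the median log2 ratio of the 7 was -1.32. All 10 listed summed to 69.2 CPM in the library labelled Smad3-/-, 6.40 CPM in the double heterozygote and 11.3 CPM in WT. Krt5 and Krt14 were at 0 in the library labelled Smad3-/-. In the library labelled Smad3+/-, 3 of the 7 were higher and 0 lower, and all 10 summed to 29.1 CPM. All 11 macrophage genes found, of 12 listed, were lower in the library labelled Smad3-/- than in WT, summing to 63.3 CPM against 2324 CPM, and none was at 0; they summed to 1484 to 2239 CPM in the other mutant libraries. The part of the assigned share, Rn18s, the reads placed at several sites and these markers in the results below was not tested.

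The copies of these genes are shown first, since reads that match several places are mostly not counted. For each gene, the 50-base windows of its coding sequence (GENCODE M21 transcripts, GRCm38) were looked up in every transcript annotated elsewhere in the genome. Rps6, a protein of the small subunit that is phosphorylated by S6 kinase, and its processed pseudogene Rps6-ps4 are shown as an identical pair: their coding sequences, on chromosomes 4 and 2, matched at 750 of 750 bases. Rpl8, which lies near the catalytic centre of the large subunit, is shown as a nearly unique gene, with its only copy matching over a short stretch. Capitals mark the bases that differ between the members of a pair, and each line runs 5′ to 3′.
Rps6, coding bases 1 to 60: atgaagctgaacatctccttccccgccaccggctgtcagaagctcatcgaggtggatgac
Rps6-ps4, the matching bases: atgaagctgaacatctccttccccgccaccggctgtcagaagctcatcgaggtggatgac
Rpl8, coding bases 628 to 687: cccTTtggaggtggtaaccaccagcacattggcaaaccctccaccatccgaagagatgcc
Gm28911, the matching bases: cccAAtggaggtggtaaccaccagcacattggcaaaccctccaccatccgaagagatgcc

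The next pair shows why the paralogues Rpl39 and Rpl39l can be told apart by reads although each protein is small. Rpl39, on chromosome X, is broadly expressed, and Rpl39l, on chromosome 16, is best known from male germ cells. Their coding sequences differed at 23 of 156 bases, and no 50-base window of Rpl39l was found in another gene, whereas 84.1% of the windows of Rpl39 also lay in 8 pseudogenes.
Rpl39l, coding bases 1 to 156: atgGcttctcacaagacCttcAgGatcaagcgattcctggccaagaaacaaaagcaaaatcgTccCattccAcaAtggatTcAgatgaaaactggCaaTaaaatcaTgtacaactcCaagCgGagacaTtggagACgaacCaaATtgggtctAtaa
Rpl39, coding bases 1 to 156: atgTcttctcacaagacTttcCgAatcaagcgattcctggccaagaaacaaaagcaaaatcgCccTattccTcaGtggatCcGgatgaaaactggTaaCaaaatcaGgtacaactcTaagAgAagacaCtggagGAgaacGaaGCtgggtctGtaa
Another expressed paralogue pair, Rps27l and Rps27, differed at 61 of 255 coding bases.

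Most of the family could not be counted without ambiguity. Over the 80 genes, the median share of windows found elsewhere was 90.2%, and 27 genes had every window elsewhere. The median gene shared windows with 9 other genes, and Rpl7a with 123. Of 1112 such gene pairs, 1064 were with pseudogenes. In 13 members less than 50% of the windows were shared, and these are called mostly unshared below. They include Rpl4, Rpl8, Rpl13a, Rpl22, Rpl32 and Rpl39l of the large subunit and Rps3, Rps9, Rps15, Rps21 and Rps27l of the small. Genes that overlap a member were left out of this search, and 97.5% of the windows of Rpl13a lay in such an overlapping gene, and whether this divided its counts was not tested.

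Counts were lower where more of the coding sequence was shared. Per kilobase of coding sequence, the median level was 916 CPM in the library labelled Smad3-/- and 391 CPM in WT for the 7 genes with under 25% of windows shared. It was 418 and 241 CPM for the 8 genes with 25 to 50%, 45.7 and 20.6 CPM for the 29 genes with 80 to under 100%, and 8.19 and 3.48 CPM for the 27 genes shared throughout. Spearman's rho between the unshared share and the level per kilobase, over the 80 genes of a library, was 0.502 to 0.556; the genes share the library and its counting, so this is a description. Exceptions lay at both ends. Rpl5, which carries a small ribosomal RNA into the large subunit, and Rpl41, whose coding sequence has 78 bases, were exceptions. Their coding sequences were shared throughout, and they were still counted at 394 and 368 CPM in WT. Their transcripts have 2045 and 582 bases, and bases outside the coding sequence were not searched, though reads there may be counted. Rpl3l and Rpl10l, paralogues known from striated muscle and from testis, were little shared and had no count in any library.

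**Figure D1:**
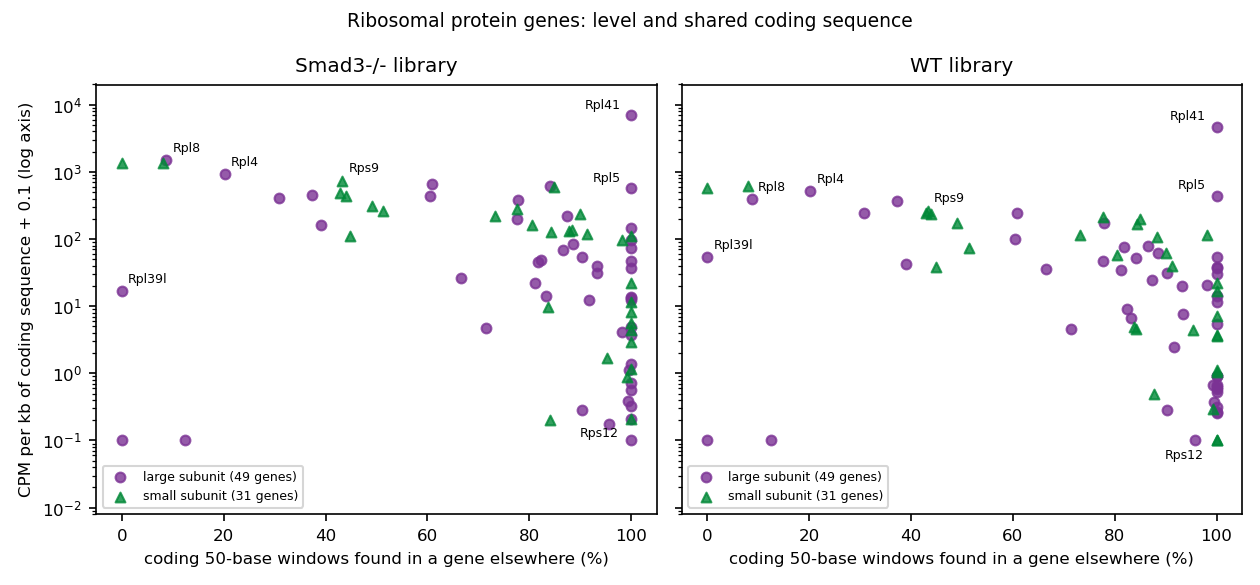
Level of each of the 80 genes per kilobase of coding sequence (CPM plus 0.1, log axis) against the percent of its coding 50-base windows found in a gene elsewhere, in the library labelled Smad3-/- (left) and in WT (right). Coding length alone is the divisor, 78 bases for Rpl41. Circles are large-subunit and triangles small-subunit genes; most genes with every window shared lie low, with a median of 8.19 CPM per kilobase in the Smad3-/- panel and 3.48 in the WT panel, and Rpl41 and Rpl5 stand above them.

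The 11 genes with such a symbol that stayed under 1 CPM everywhere had at most 21 counts in a library. They were Rpl3, Rpl12, Rpl24, Rpl27, Rpl29, Rps12, Rps13, Rps28 and Rps29, each with at least 50% of its windows shared, and the 2 tissue-restricted paralogues above. What part of their transcripts these counts catch was not tested. Of the 69 members, 52 reached 1 CPM in all 6 libraries. In the library labelled Smad3-/-, the double heterozygote, or both, but in no other library, that limit was reached by 8 members: Rpl10a, Rpl11, Rpl17, Rpl23a, Rpl28, Rpl36a, Rps18 and Rps27a.

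The members took up more of the counts in 2 libraries. They held 1.00% of all counts on genes in the library labelled Smad3-/- (95% exact Clopper-Pearson interval 0.996 to 1.004) and 0.712% (0.709 to 0.715) in the double heterozygote. Their share was 0.462% in Sptbn1+/-, 0.453% in Sptbn1-/-, 0.499% (0.495 to 0.503) in the library labelled Smad3+/- and 0.436% (0.432 to 0.439) in WT. These intervals cover counting error only. Without Rn18s in the total, the library labelled Smad3-/- again stood at 1.00%, against 0.465% in WT. In bulk RNA, more cells of a type and more RNA per cell cannot be told apart.

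The split between the subunits moved little. Large-subunit members made up 58.6% of member counts in Sptbn1+/-, 58.6% in Sptbn1-/-, 58.3% in the library labelled Smad3+/-, 58.1% in Smad3-/-, 55.7% (55.5 to 55.9) in the double heterozygote and 59.3% (58.8 to 59.7) in WT. The double heterozygote was lowest and WT highest. Among the 13 mostly unshared members the large-subunit share was 47.0% in the double heterozygote, 49.4 to 50.4% in the other mutant libraries and 49.95% in WT. A few genes carried these sums: Rps3, Rpl4, Rpl5, Rpl8 and Rpl41 held 43.8 to 49.0% of member counts in the mutant libraries and 49.3% in WT.

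**Figure D2:**
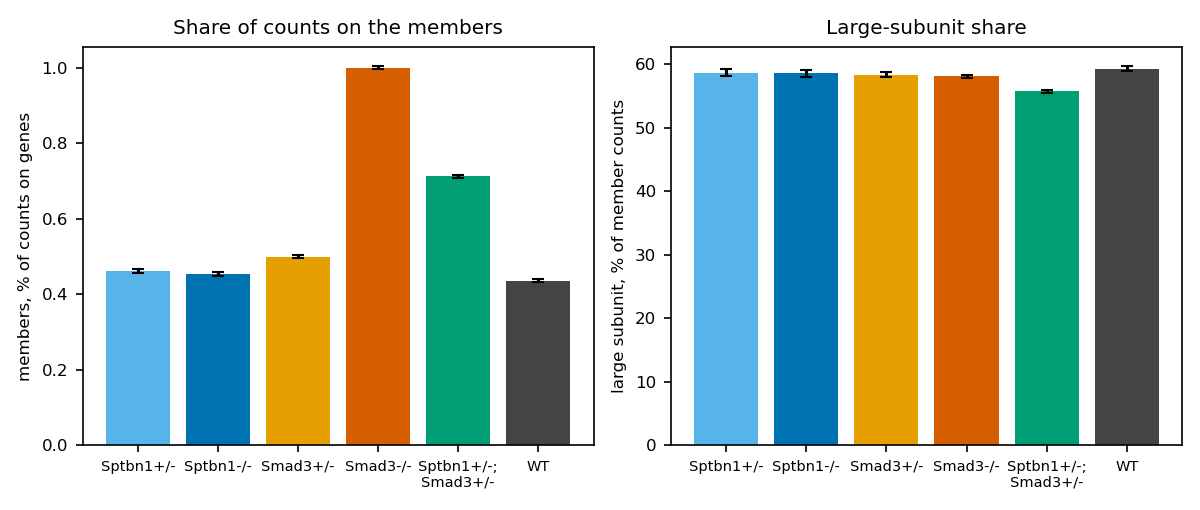
Share of all counts on genes that fell on the 69 members (left, percent) and large-subunit share of the member counts (right, percent) in each library, with exact 95% intervals that cover counting error only. The bars for Smad3-/- (1.00%) and for the double heterozygote (0.712%) stand above WT (0.436%), while the large-subunit share runs from 55.7 to 59.3%.

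For each mutant library and WT, the ratio of scaled counts was taken with an exact 95% interval, and calls of higher or lower were made where all of that interval lay beyond 1.5-fold. The comparisons below share the WT library. In Sptbn1+/-, Sptbn1-/- and the library labelled Smad3+/-, 65 of the 69 members (94.2%) were not called in any of the 3, as were 92.1% of all genes.

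In Sptbn1+/-, 2 of 69 members were higher than in WT and 0 lower, where 0.634 and 1.19% of all 14824 genes compared were. The median log2 ratio of the members was 0.09, against -0.01 for all genes. In Sptbn1-/-, 1 member was higher and 1 lower (background 0.648 and 0.411%), with a median of 0.12; the higher one, Rpl9, passed the level limit through this library alone. In the library labelled Smad3+/-, 1 was higher and 0 lower (background 1.64 and 4.45%), and the median was 0.29 with 56 of 69 members above 0, against a median of 0.01 for all genes. That library was also the only one with Xist at a high level, 2747 CPM against 16.3 CPM in WT and 0.0637 to 2.65 CPM in the other 4; Xist is transcribed from the inactive X chromosome of female cells, and its part in these values was not tested. None of the 13 mostly unshared members was called in these 3 libraries, and their medians were 0.11, 0.12 and 0.26. In 11 of the 13, the highest of these 3 libraries and WT was less than 1.5-fold above the lowest, and the widest range was 1.93-fold, for Rpl39l.

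Rpl30, a large-subunit protein that binds RNA, was called higher than in WT in Sptbn1+/-, the library labelled Smad3+/- and the double heterozygote. It was at 16.2 CPM in Sptbn1+/-, 2.69 CPM in Sptbn1-/-, 32.9 CPM in the library labelled Smad3+/-, 4.89 CPM in Smad3-/-, 7.90 CPM in the double heterozygote and 2.30 CPM in WT. Relative to WT this was 7.04-fold higher in Sptbn1+/- (4.56 to 11.3) and 14.3-fold higher in the library labelled Smad3+/- (9.58 to 22.2). Both single heterozygotes thus lay above the double heterozygote, which was 2.05-fold lower than Sptbn1+/- and 4.16-fold lower than the library labelled Smad3+/-. Of the windows of Rpl30, 83.3% were found in 16 pseudogenes, and its whole coding sequence matched that of Gm12191 at 347 of 348 bases, and whether the counts come from a copy was not tested.

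Rpl37, a zinc-binding protein of the large subunit, was at 19.9 CPM in Sptbn1+/-, 17.9 CPM in Sptbn1-/-, 12.7 CPM in the library labelled Smad3+/-, 6.49 CPM in Smad3-/-, 2.48 CPM in the double heterozygote and 10.0 CPM in WT. It was 1.99-fold higher in Sptbn1+/- than in WT (1.54 to 2.58) and 4.02-fold lower in the double heterozygote (2.99 to 5.44). Rpl9 was called in Sptbn1-/- on 10 counts against 1 in WT, at 1.49 against 0.0885 CPM (16.9-fold, 2.40 to 733). Rpl37 and Rpl9 shared 81.2 and 100% of their windows with other genes.

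Rpl39 and its paralogue lay on opposite sides of WT in the library labelled Smad3-/-. Rpl39 was at 4.86 CPM in Sptbn1+/-, 0.598 CPM in Sptbn1-/-, 7.75 CPM in the library labelled Smad3+/-, 95.4 CPM in Smad3-/-, 13.1 CPM in the double heterozygote and 8.23 CPM in WT. It was 13.8-fold lower in Sptbn1-/- than in WT (5.20 to 51.6) and 11.6-fold higher in the library labelled Smad3-/- (9.42 to 14.4). Rpl39l was at 6.33 CPM in Sptbn1+/-, 7.62 CPM in Sptbn1-/-, 12.2 CPM in the library labelled Smad3+/-, 2.58 CPM in Smad3-/-, 7.77 CPM in the double heterozygote and 8.32 CPM in WT. It was 3.23-fold lower in the library labelled Smad3-/- than in WT (2.30 to 4.56), and it was the only mostly unshared member called lower in any comparison with WT.

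In the library labelled Smad3-/-, 39 of 69 members were higher than in WT and 6 lower, where 24.2% of all genes were higher and 25.2% lower. The median log2 ratio was 0.94 over the members, 0.85 over the large and 1.00 over the small subunit, and 0.05 over all genes. Without the 8 members that passed the level limit through this library or the double heterozygote, 34 of 61 were higher and 6 lower, with a median of 0.88. When the interval was widened by the spread left around a fit of the 6 libraries on labelled allele numbers, 5 members were higher and 1 lower. The share of all genes called with this widened interval was not computed. Of the 13 mostly unshared members 11 were higher, 1.63- to 3.83-fold.

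Counts are firmest for the abundant, mostly unshared members, Rpl13a excepted. Rpl8 had 1148 CPM in the library labelled Smad3-/- and 302 CPM in WT, 3.80-fold higher (3.66 to 3.94). Rps3, which lines the mRNA entry channel and also acts in DNA repair, was at 998 against 452 CPM, 2.21-fold higher (2.14 to 2.28). Rpl4, at the nascent-chain tunnel, was at 1155 against 649 CPM, 1.78-fold higher, and Rps9, which lies at the mRNA entry, at 434 against 155 CPM, 2.80-fold higher. Rpl13a, also known as a translational silencer in the interferon response, was at 98.8 against 25.8 CPM, 3.83-fold higher. An overlapping gene held 97.5% of its windows. Reads ambiguous between genes were 0.0251% of records in the library labelled Smad3-/-, 0.395% in WT and 0.827% in the double heterozygote. Their part in the Rpl13a ratio was not tested. Rpl32, at 182 against 150 CPM, was the 1 mostly unshared member not called.

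Members at the extremes were heavily shared. Rps18 and Rpl11 were also among the 8 members that passed the level limit only through the library labelled Smad3-/- or the double heterozygote. That limit favoured high ratios to WT. Rps18, at the head of the small subunit, had 59.5 CPM in the library labelled Smad3-/- and 0.177 CPM in WT, a 336-fold ratio (92.9 to 2781) that rests on 2 counts in WT. Rpl11, which with Rpl5 binds Mdm2 when ribosome assembly fails, was at 6.97 against 0.0885 CPM (78.8-fold, 13.9 to 3133), with 1 count in WT. Rpl26, which has been described as a binder of p53 mRNA, was at 96.9 against 10.7 CPM, 9.05-fold higher (7.53 to 10.96). In the other direction Rps2, a neighbour of Rps3 at the mRNA entry, was at 0.0888 against 3.89 CPM, 43.8-fold lower (11.4 to 373) on 2 counts, and Rpl36 at 1.29 against 6.55 CPM, 5.08-fold lower (3.27 to 8.10). Rpl10, which joins the large subunit last, had no count against 0.531 CPM in WT. Taken at a floor of 3 counts, it was 3.98-fold lower, a value that treats the WT count as exact and is no interval bound. Rps2 shared windows with 71 pseudogenes, and Rps18, Rpl11, Rpl26, Rpl36 and Rpl10 had 87.4 to 100% of their windows elsewhere.

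**Figure D3:**
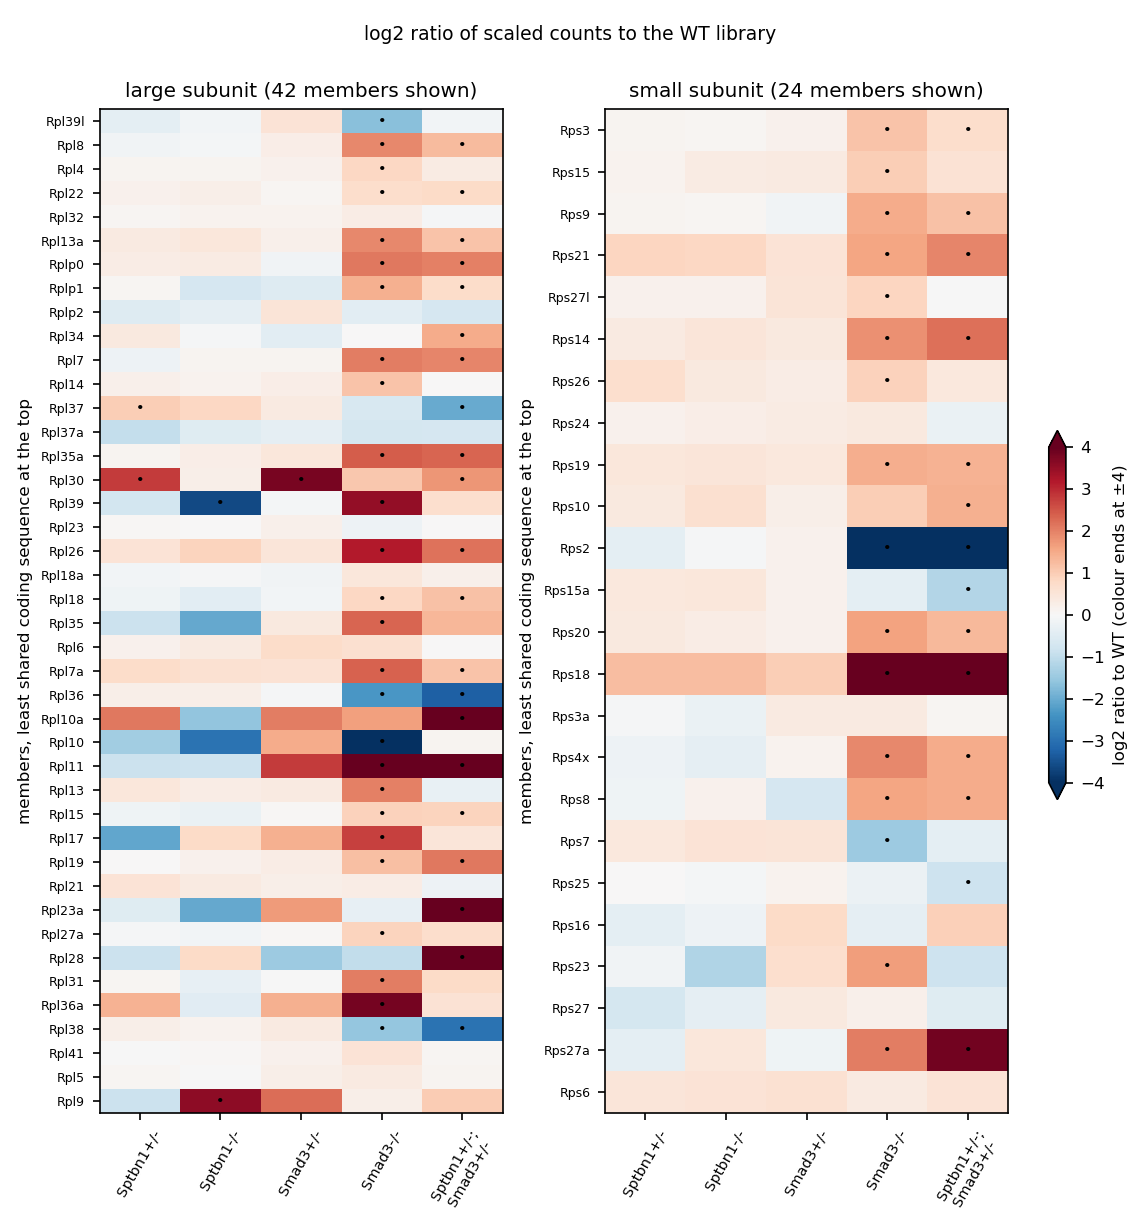
Log2 ratio of scaled counts to WT for the 42 large-subunit (left) and 24 of the 27 small-subunit members (right) in the 5 mutant libraries, with the least shared coding sequence at the top; colours end at ±4 and a dot marks an exact 95% interval wholly beyond 1.5-fold. Dots are few in the Sptbn1+/-, Sptbn1-/- and Smad3+/- columns (2, 2 and 1) and many in the Smad3-/- column (42) and the double heterozygote's (35).

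In the double heterozygote, 32 of 69 members were higher than in WT and 6 lower, where 21.6% of all genes were higher and 19.1% lower. The median log2 ratio was 0.71 over the members, 0.72 over the large and 0.71 over the small subunit, and 0.06 over all genes. Without the 8 members named above, 26 of 61 were higher and 6 lower, with a median of 0.69. With the widened interval, 6 were higher and 3 lower, again with no share of all genes computed. Of the 13 mostly unshared members 8 were higher and 0 lower, with a median of 0.71. Rpl8 was at 727 against 302 CPM, 2.41-fold higher (2.32 to 2.49), and Rps3 at 738 against 452 CPM, 1.63-fold higher (1.58 to 1.68). Rpl4, at 812 against 649 CPM, was not called.

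At the extremes of the double heterozygote stood again heavily shared members. Rps18, Rpl11, Rpl10a and Rpl23a were also among the 8 members named above. Their passing the level limit only in this library or the library labelled Smad3-/- favoured high ratios to WT. Rps18 was at 36.2 against 0.177 CPM in WT (204-fold, 56.5 to 1691), and Rpl11 at 8.44 against 0.0885 CPM (95.4-fold, 17.0 to 3782), on 2 counts and 1 count in WT. Rpl10a and Rpl23a, a docking site for nascent chains at the tunnel exit in the case of Rpl23a, were at 6.50 against 0.177 CPM (36.7-fold, 10.04 to 305) and at 6.53 against 0.265 CPM (24.6-fold, 8.30 to 120), on 2 and 3 counts in WT. Rps2 had no count against 3.89 CPM in WT. Taken at a floor of 3 counts, it was 40.7-fold lower, a value that treats the WT count as exact and is no interval bound. Rpl36 was at 0.669 against 6.55 CPM, 9.79-fold lower (5.96 to 16.7). Rpl38, known in mice for its part in the translation of Hox mRNAs, was at 0.382 against 3.01 CPM, 7.87-fold lower (3.98 to 16.7).

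Both libraries were set against the same WT library, so their calls are not independent. Called in none of the 5 comparisons with WT were 14 members (20.3%) and 34.6% of all genes.

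Some members stood apart in a single library, with an interval beyond 1.5-fold from the nearest of the other 5. In the library labelled Smad3-/-, 12 members (17.4%) stood above, beside 8.56% of all genes. They were led by Rpl39, 7.30-fold above the double heterozygote, and by Rpl13, at 94.2 CPM against 18.9 to 31.7 CPM elsewhere. Of these 12, Rpl36a passed the level limit through this library alone, which favoured its standing above. In the double heterozygote, 5 stood above (7.25%, beside 7.12% of all genes), led by Rpl28, at 4.08 CPM against at most 0.149 CPM elsewhere, and by Rpl23a and Rpl10a. These 3 passed the level limit through the double heterozygote alone, so standing above was favoured by that limit. Rps27a, made as a fusion with ubiquitin, was also among the 8 members named above, and was at 6.97 CPM in the double heterozygote, 1.999 CPM in the library labelled Smad3-/- and 0.295 to 0.598 CPM in the other 4. Rpl37 and Rps15a stood below in the double heterozygote (2.90%, beside 4.28% of all genes). Rps15a was at 29.1 CPM there, against 50.1 to 89.1 CPM elsewhere and 65.0 CPM in WT.

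**Figure D4:**
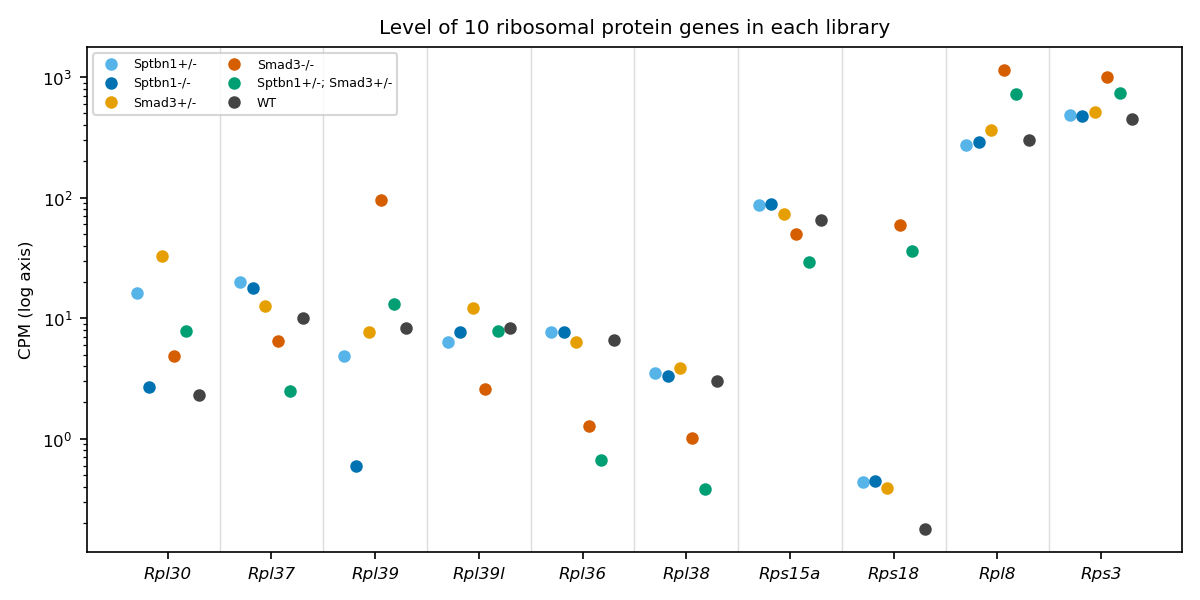
CPM (log axis) of 10 members in each of the 6 libraries; points are single libraries, with no error bar because there is 1 library per genotype. Rpl39 ranges from 0.598 CPM in Sptbn1-/- to 95.4 CPM in Smad3-/-, Rps18 lies under 0.5 CPM in 4 libraries, and Rpl8 and Rps3 are highest in Smad3-/- and the double heterozygote.

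The stalk of the large subunit, which recruits elongation factors, was called unequally across its 3 genes. Rplp0, its base, had 416 CPM in the library labelled Smad3-/-, 382 CPM in the double heterozygote, 87.0 to 120 CPM in the other mutant libraries and 95.4 CPM in WT. It was 4.36-fold higher in the library labelled Smad3-/- (4.09 to 4.65) and 4.003-fold higher in the double heterozygote (3.76 to 4.26). Rplp1 was at 228, 143 and 84.9 CPM in the library labelled Smad3-/-, the double heterozygote and WT, 2.68- and 1.68-fold higher. Rplp2, its partner in the same dimer, was at 9.19, 7.74 and 12.3 CPM in those libraries and was not called against WT. These 3 genes shared 60.4 to 66.6% of their windows with other genes.

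Several genes mutated in the human anaemias of ribosomal origin encode proteins of the small subunit. Rps19, the most often mutated gene in Diamond-Blackfan anaemia, had 69.8 CPM in the library labelled Smad3-/-, 66.4 CPM in the double heterozygote and 25.3 CPM in WT, 2.76- and 2.63-fold higher. Rps26 was at 76.1, 53.6 and 39.9 CPM in the same libraries and was called only in the library labelled Smad3-/-, whereas Rps24, at 112, 70.5 and 84.5 CPM, was called in neither. Rps14, lost in the 5q deletion of human myelodysplasia, was at 119, 155 and 33.4 CPM, 3.58- and 4.66-fold higher. Rps6, the S6 kinase substrate shown above, was at 16.4, 18.4 and 12.7 CPM and was not called. Rpl5, at 511, 427 and 394 CPM, was not called, although its partner Rpl11 was. Rpl22, at 157, 162 and 96.0 CPM, was called in both, while Rpl41, at 542, 387 and 368 CPM, was called in neither.

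Rps4x, an X-linked gene, had 187 CPM in the library labelled Smad3-/-, 139 CPM in the double heterozygote, 54.7 CPM in the library labelled Smad3+/- and 49.4 CPM in WT. It was 3.78-fold higher than WT in the library labelled Smad3-/- (3.46 to 4.14) and 2.82-fold higher in the double heterozygote. The paralogue Rps27l, which p53 induces in human cells, had 79.6 CPM in the library labelled Smad3-/-, 43.5 CPM in the double heterozygote and 43.6 CPM in WT, 1.83-fold higher in the library labelled Smad3-/-. Its ubiquitous counterpart Rps27 was at 2.09, 1.27 and 1.77 CPM in those libraries and was not called.

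The remaining pairs set libraries against those labelled heterozygous. Between Sptbn1-/- and Sptbn1+/-, 1 member was higher, Rpl9, and 2 were lower, Rpl30 and Rpl39 (background 0.924 and 0.378%). Between the libraries labelled Smad3-/- and Smad3+/-, 31 members were higher and 9 lower (22.7 and 22.3%), with a median log2 ratio of 0.64. Between the double heterozygote and Sptbn1+/-, 25 were higher and 7 lower (21.1 and 18.2%), with a median of 0.67. Against the library labelled Smad3+/-, 25 were higher in the double heterozygote and 9 lower (22.5 and 18.9%), with a median of 0.36. The pairs with the library labelled Smad3-/- or the double heterozygote keep the 8 members that passed the level limit only through those libraries. That limit favoured higher calls of these members, and the pairs were not recounted without them.

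The start of transcription was read for the members that have a promoter entry in RefSeq (GRCm38.p6). A run of at least 8 bases that are each C or T, on the gene's own strand and beginning or ending within 2 bases of the start or spanning it, was found in 20 of 52 members (38.5%), and in 2157 of 27025 genes (7.98%). This search also takes runs that lie mostly before the start or begin after it. It is therefore looser than the tract described above, with which an mRNA begins. A match is a description of these letters only. The 5 starts printed here span 15 bases before and 15 from the start, with the run in capitals, and were chosen from genes called in opposite directions or not at all.
Rps18, chr17:33955651-33955680, minus strand: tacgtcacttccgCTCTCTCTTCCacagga
Rpl13a, chr7:45128731-45128760, minus strand: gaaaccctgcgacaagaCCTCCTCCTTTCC
Rps9, chr7:3704026-3704055, plus strand: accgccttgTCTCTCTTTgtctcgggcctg
Rpl38, chr11:114668565-114668594, plus strand: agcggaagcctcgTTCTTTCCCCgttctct
Rps6, chr4:86857353-86857382, minus strand: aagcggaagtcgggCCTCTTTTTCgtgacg
Rps18, Rpl13a and Rps9 were higher in the libraries labelled Smad3-/- and double heterozygote than in WT, Rpl38 was lower in both, and Rps6 was called in neither. Over all 20 members with such a run, 11 were higher and 1 lower in the library labelled Smad3-/-, and 11 higher and 2 lower in the double heterozygote. Over the 32 with a promoter entry and no such run, 17 were higher and 4 lower in the library labelled Smad3-/-, and 9 higher and 3 lower in the double heterozygote; the difference was not tested.

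Ribosomal proteins whose symbols lie outside the rule were tallied apart, and the shares of all genes to set beside these and the lists that follow are 24.2% higher and 25.2% lower in the library labelled Smad3-/- and 21.6 and 19.1% in the double heterozygote. Of 7 such genes, 5 were higher than in WT (71.4%) and 0 lower in the library labelled Smad3-/-, and 3 were higher (42.9%) and 1 lower (14.3%) in the double heterozygote. Gnb2l1, the scaffold protein on the small-subunit head now called Rack1, had 1892 CPM in the library labelled Smad3-/-, 1183 CPM in the double heterozygote and 448 CPM in WT, 4.22- and 2.64-fold higher. Rpsa was at 339, 177 and 71.4 CPM, 4.75- and 2.47-fold higher. Fau, a fusion protein of the small subunit, was at 1.69, 1.66 and 2.21 CPM and was not called.

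The genes that build ribosomes gave different counts of calls in these libraries; the difference itself was not tested. Of 63 biogenesis factors and subunits of RNA polymerase I, 41 were higher (65.1%) and 2 lower (3.17%) in the library labelled Smad3-/- than in WT, with a median log2 ratio of 0.97. In the double heterozygote 7 were higher (11.1%, under the 21.6% of all genes) and 13 lower (20.6%, near the 19.1% of all genes), with a median of -0.18, while the median of the ribosomal protein genes there was 0.71. In the library labelled Smad3+/-, 1 was higher and 0 lower, with a median of 0.33 beside 0.29 for the members. The nucleolar proteins Ncl and Npm1 went different ways in the library labelled Smad3-/-: Ncl was at 388 CPM there and 789 CPM in WT, and Npm1 at 333 against 64.8 CPM.

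Mitochondrial ribosomal protein genes, which encode the proteins of a separate ribosome, were also tallied: 45 of 73 were higher (61.6%) and 0 lower in the library labelled Smad3-/-, with a median of 1.02. In the double heterozygote 14 were higher (19.2%, near the share of all genes) and 3 lower (4.11%), with a median of 0.19. Of 79 genes with symbols of oxidative phosphorylation subunits, 37 were higher (46.8%) and 3 lower (3.80%) in the library labelled Smad3-/- and 21 higher (26.6%) and 4 lower (5.06%) in the double heterozygote, with medians of 0.74 and 0.46. Among 20 translation factors and other genes known to begin with a pyrimidine tract, 10 were higher (50%) and 5 lower (25%) in the library labelled Smad3-/- and 6 higher (30%) and 4 lower (20%) in the double heterozygote. Eef1a1, the elongation factor that delivers aminoacyl-tRNA, was at 4089, 2720 and 993 CPM in the library labelled Smad3-/-, the double heterozygote and WT. Pabpc1, the poly(A)-binding protein, was at 165, 763 and 700 CPM in those libraries. Of 27 other initiation factors, 10 were higher (37.0%) and 3 lower (11.1%) in the library labelled Smad3-/- and 5 higher (18.5%) and 7 lower (25.9%) in the double heterozygote. Of 20 MYC and mTOR pathway genes, 4 were higher (20%) and 5 lower (25%) in the library labelled Smad3-/-, and 3 higher (15%) and 5 lower (25%) in the double heterozygote, shares near those of all genes. Myc itself was at 39.0, 52.6 and 72.01 CPM in the library labelled Smad3-/-, the double heterozygote and WT.

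**Figure D5:**
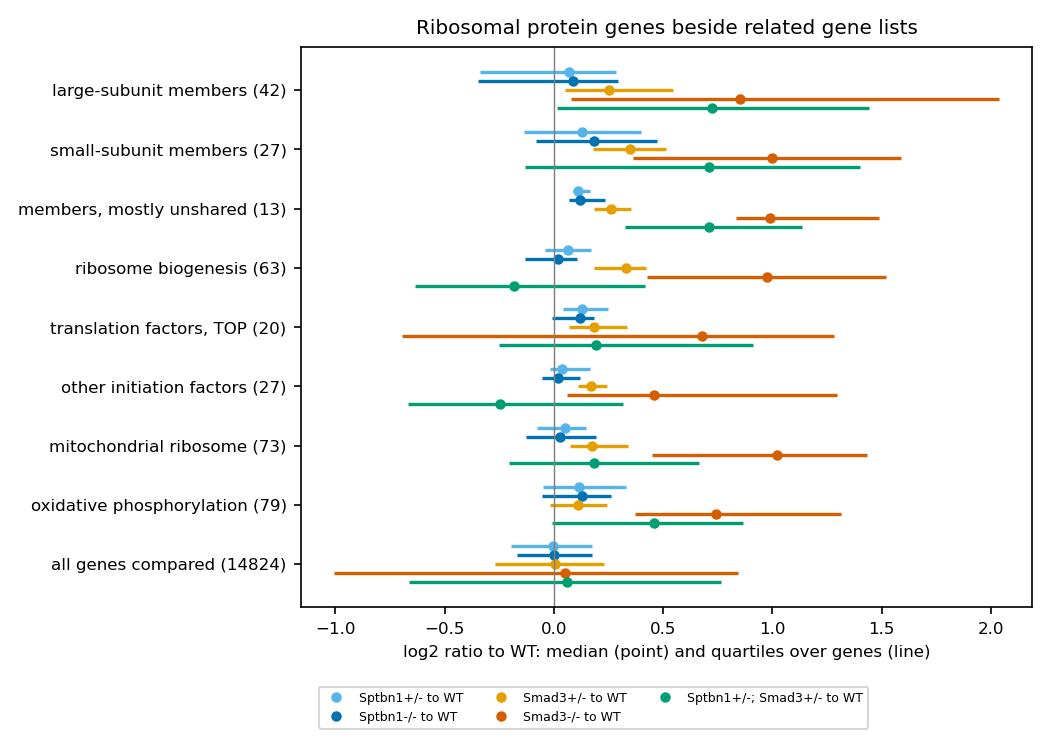
Log2 ratio to WT of the members and of related gene lists in the 5 mutant libraries; points are medians over genes, lines run between the quartiles, and the number of genes is in brackets. In the double heterozygote the members' subunits have medians of 0.72 and 0.71 while biogenesis genes have -0.18; in Smad3-/- the same lists have 0.85, 1.00 and 0.97.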

How the data were processed

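TRIZOL was used to extract total RNA, per the labels' protocols, and 1 ug went into an Illumina TruSeq RNA kit. The authors deposited raw read counts per gene, 1 table per library, without scaling. Tools named in the submitters' processing notes are TopHat2 2.0.10, HTSeq, DESeq2, Trimmomatic and FastQC, with the build mm9; roles, strand setting and annotation are not given in the sources used here. The 5 summary lines in each table were left out of library sizes. Reads placed at several sites, and so on no gene, were 38.9% of records in the library labelled Smad3-/- and 32.5% in the double heterozygote. In the other 4 libraries they were 42.9 to 47.1%.

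TMM scaling of library sizes was done in edgeR 4.0.16 (R 4.3.3), and CPM, or counts-per-million, refer to the scaled size; the limit of 1 CPM used unscaled totals. Ratios have exact Clopper-Pearson intervals (scipy 1.17.1), and log2 ratios add 0.5 counts. The intervals and the floor of 3 counts cover counting error only. The spread of the widened interval was a common coefficient of variation of 0.467 from edgeR. It is what was left around an additive fit on the labelled numbers of Sptbn1 and Smad3 mutant alleles. With no replicates, it is not a measured spread within a genotype. Shared windows used GRCm38, a later build than the authors' mm9, so copies missing from that annotation were not seen. The 80 symbols were all matched, Rps3a as Rps3a1.

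Genes named follow fixed parts: the 4 highest and 4 lowest called members of each comparison with WT, members apart in 1 library, the highest levels per length, paralogues, and genes fixed by role. Ncl, Npm1, Eef1a1, Pabpc1, Myc, Gnb2l1, Rps9, Rps15a and Rpl32 were added after their values were seen. Some genes that enter the counts and medians are not reported here by name. The members and all lists were chosen with earlier results of these data known. Alternatives were DESeq2 1.42.0 size factors, total counts, other folds and level limits, a wider interval, and members with little shared sequence.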

Additional observations from a re-analysis of the deposited data

Results flagged for a closer look

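In 3 cases among the 69 members, an allele went with opposite differences in the 2 backgrounds in which it was measured. Each had 1 library on either side, so the difference was not tested. The share of all genes with such opposite differences was not computed. For the Sptbn1+/- allele, Rpl30 was 7.04-fold higher in Sptbn1+/- than in WT and 4.16-fold lower in the double heterozygote than in the library labelled Smad3+/-, a difference of 4.85 on the log2 scale. For the Smad3+/- allele the same 4 libraries give the same difference of 4.85, since Rpl30 was 14.3-fold higher in the library labelled Smad3+/- than in WT and 2.05-fold lower in the double heterozygote than in Sptbn1+/-. Rpl37 was 1.99-fold higher in Sptbn1+/- than in WT and 5.11-fold lower in the double heterozygote than in the library labelled Smad3+/-, a difference of 3.34. Both genes have most of their coding windows in pseudogenes, and the double heterozygote also differs from the other 3 libraries in its share of reads on genes.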

How the results depend on the processing

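No paired analysis was possible because there was 1 library per genotype, and for the same reason no replicate could be left out. Medians kept their direction under every scaling and level limit; against WT, that of the members ran from 0.88 to 1.07 in the library labelled Smad3-/- and from 0.62 to 0.75 in the double heterozygote. Scaling to total counts moved the median of all genes to 0.14 in the library labelled Smad3-/-, against 0.05 with TMM.

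The interval widened by the dispersion left 1 member higher in Sptbn1+/-, 0 higher and 1 lower in Sptbn1-/-, 1 higher in Smad3+/-, 5 higher and 1 lower in the library labelled Smad3-/- and 6 higher and 3 lower in the double heterozygote, each against WT. It left 0 and 0 in Sptbn1-/- against Sptbn1+/-, 4 and 3 in Smad3-/- against Smad3+/-, 5 and 4 in the double heterozygote against Sptbn1+/-, and 6 and 3 against Smad3+/-. At 2-fold, 1 was higher in Sptbn1+/- and 21 in the double heterozygote against WT. At 5 CPM, 0 were higher in Sptbn1-/- against WT or Sptbn1+/-, and 2 were lower in Smad3-/- against WT and 5 against Smad3+/-. A mean of at least 1 CPM, added after seeing the data, left 0 higher in Sptbn1-/- against WT or Sptbn1+/-. Shares of all genes called were not computed for the settings in this paragraph, so these counts have no background beside them.

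With the 13 mostly unshared members, 0 were called in the 3 libraries Sptbn1+/-, Sptbn1-/- and Smad3+/- against WT or in Sptbn1-/- against Sptbn1+/-. The counts higher and lower were 11 and 1 in Smad3-/- and 8 and 0 in the double heterozygote against WT, 7 and 1 in Smad3-/- against Smad3+/-, and 4 and 0 in the double heterozygote against Sptbn1+/- and likewise against Smad3+/-. A set of the 23 members that share under 50% of 100-base windows was added after seeing the data. Of these, against WT, 0 were higher in those 3 libraries and 1 was lower, in Sptbn1-/-. Counts higher and lower were 18 and 1 in Smad3-/- and 15 and 0 in the double heterozygote, with medians of 1.23 and 0.76. Against the heterozygotes they were 0 and 1 in Sptbn1-/-, 14 and 2 in Smad3-/- with a median of 0.96, 10 and 0 in the double heterozygote against Sptbn1+/-, and 11 and 1 against Smad3+/- with a median of 0.74. Fewer members were counted in both sets.

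The large-subunit share of mostly unshared members was 49.8, 50.4, 49.4, 49.6 and 47.0% in Sptbn1+/-, Sptbn1-/-, Smad3+/-, Smad3-/- and the double heterozygote, and 49.95% in WT; from median counts it was 26.7, 26.3, 26.9, 24.8 and 23.8%, and 25.6% in WT. In the same order, the members held 0.103, 0.0979, 0.121, 0.490 and 0.390% of all records, and 0.105% in WT. Without Rn18s they held 0.499% in Sptbn1+/-, 0.495% in Sptbn1-/-, 0.539% in Smad3+/- and 0.465% in WT. At the depths here, a member with no count in a library, such as Rps2 in the double heterozygote, is known only to lie under the floor of 3 counts.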
